A study of Mus musculus with 24 samples.

Results

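Macrophages of the dura, the tough outer sheet of the membranes that enclose the brain, were compared between 3 sequencing libraries marked P5 and 3 marked P4. These 6 libraries were chosen by the mark in their column names. They are 6 of the 24 samples of the series and of its 9 dural libraries, and the remaining 3 dural libraries carry the mark P6. Both groups came from C57BL/6 mice of wild type genotype, 17 weeks old and at steady state, per the labels, although the title of the series speaks of RAG-1 deficient mice given T cells. The cells were sorted in bulk by flow cytometry from digested dura of mice perfused through the heart, and their RNA was sequenced as short single-end reads. The labels place the dural samples in 3 macrophage subsets (C1, C2 and C3), and the columns carry the marks P4, P5 and P6 with a number, 1, 3 or 4. No label ties a mark to a subset, and the sources used here do not name the markers of the sort gates. Some genes described here may therefore code for proteins that were used to sort the cells, in which case their difference follows from the sort. The labels do not say that libraries came from separate animals, so a p-value here covers only library-to-library spread, which may be technical.

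Macrophages of the dura and other border tissues of the brain take up debris and show antigen to passing T cells. Antigen taken up from outside is loaded onto MHC class II molecules, which are made of an alpha and a beta chain, guided by the invariant chain Cd74 and switched on as a group by the transactivator Ciita. In many tissues, resident macrophages are described along an axis from cells rich in MHC class II and the monocyte chemokine receptor Ccr2 to cells rich in the hyaluronan receptor Lyve1 and other scavenger receptors.

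The P5 libraries held 11631455, 12538129 and 24077834 counts over genes, and the P4 libraries 10457920, 14440060 and 16328691 counts, for the numbers 1, 3 and 4 in that order, which is kept wherever library values are listed. Between 16756 and 18254 genes had a count in the P5 libraries, against 15061, 17305 and 16992 in the P4 libraries. P4 library 1 also had few genes with exactly 1 count, 371 against 824 to 1480 in the other 5 libraries. No pair of libraries of the same mark was a repeat of the same library, since chi-square per degree of freedom was 11.62 to 28.71 within P5 and P4, where repeat reading gives about 1. Genes that mark macrophages were abundant in both groups. The receptor for macrophage growth factor, Csf1r, stood at 5121.1, 6006.5 and 6712.3 counts per 1000000 (CPM) in P5, against 5521.6, 6021.9 and 6636.9 CPM in P4. The lysosomal glycoprotein gene Cd68 stood at 639.6, 651.2 and 690.6 CPM in P5 and at 637.4, 614.6 and 611.9 CPM in P4. Neither passed the test (log2 fold change -0.03, adjusted p = 0.925 for Csf1r, and 0.09, adjusted p = 0.608 for Cd68). The 18 general macrophage genes together were higher in every P5 library, at 41104.0, 41064.1 and 41907.7 CPM against 35371.3, 35115.1 and 36150.6 CPM in P4.

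Compared with P4 macrophages, P5 macrophages had far more RNA for MHC class II antigen presentation, more of Ccr2 and of several chemokine and adhesion genes, and less of Lyve1 and of other genes of that resident type. P5 libraries also held much less RNA of fibroblast and meningeal genes. The quasi-likelihood test of edgeR covered 12914 genes, of which 343 (2.66%) were higher and 778 (6.02%) lower in P5 at a Benjamini-Hochberg adjusted p of 0.05, together 8.68%. Counts of called members in the gene lists below are to be read beside these shares. The libraries of the 2 marks did not overlap in 1502 genes (11.6%) with P5 above P4 and in 1905 genes (14.8%) with P5 below P4. Calls in the 2 directions differed in size and abundance. The median log2 fold change was 0.67 for the genes called higher and -1.61 for those called lower, with -0.0073 over all genes tested. Among genes that averaged 20 CPM or more in each mark, 252 were called higher and 179 lower in P5. A log2 fold change of at least 1 was reached by 100 of the genes called higher and by 626 of those called lower.

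**Figure D1:**
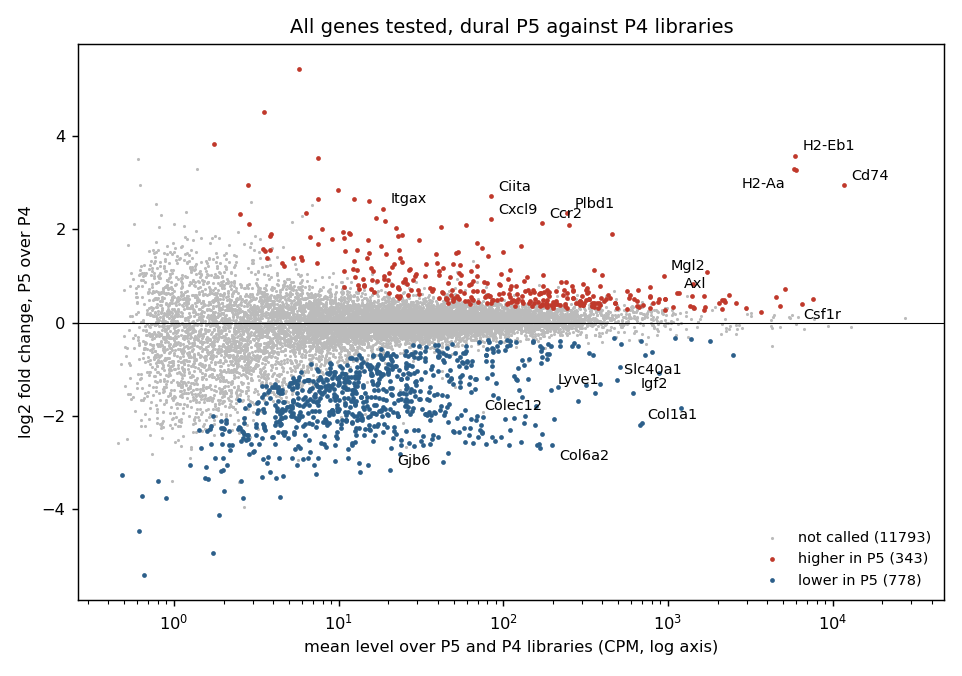
Each point is a gene, with its mean level over the P5 and P4 libraries in CPM on a log axis and its log2 fold change, P5 over P4, on the vertical axis. Genes called higher in P5 (red, 343) include the abundant H2-Eb1, H2-Aa and Cd74 at the far upper right, and the genes called lower (blue, 778) lie mostly at lower levels and reach larger changes.

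The direction of the calls depended on scaling to some degree. With library totals in place of TMM factors, 205 genes were higher and 1048 lower, the share of calls that were higher fell to 16.4%, against 30.6% with TMM, and the median of all genes moved to -0.134. Without P5 library 3 there were 173 higher and 510 lower calls, without P4 library 3 there were 210 and 436, without P5 library 4 there were 249 and 482, and without both libraries of number 3 there were 94 and 273. Under 11 other fits and without each single library in turn, 145 genes stayed called higher and 303 lower, and 82 and 220 when each number was also left out in turn. Unless stated otherwise, genes given as called kept that call in all 20 alternatives.

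The 5 called genes with the highest log2 fold changes at 20 CPM or more in both marks were class II genes. Of 11 class II genes, all tested, 8 were called higher in P5 and 3 were not called, with a median log2 fold change of 2.71. H2-Eb1, the beta chain of the I-E molecule (ENSMUSG00000060586, GRCm38 chromosome 17, 34305867 to 34316674, plus strand), stood at 11195.2, 11080.6 and 10499.1 CPM in P5 and at 837.2, 988.3 and 910.4 CPM in P4. Its log2 fold change was 3.58 ± 0.08 (SE; 12-fold; adjusted p = 5.95e-09). Every P5 library lay far above every P4 library, and the libraries of each mark lay close together.

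The chains of the I-A molecule differed to a similar degree. H2-Ab1, the beta chain (ENSMUSG00000073421, chromosome 17, 34257689 to 34269419, plus strand), stood at 10754.0, 10795.0 and 10107.6 CPM in P5, against 974.5, 1147.8 and 1105.4 CPM in P4 (log2 fold change 3.29 ± 0.08, adjusted p = 5.95e-09). H2-Aa, the alpha chain (ENSMUSG00000036594, chromosome 17, 34282744 to 34287823, minus strand), stood at 11686.9, 10714.0 and 10096.1 CPM in P5, against 1047.3, 1218.3 and 1083.9 CPM in P4 (3.28 ± 0.09, adjusted p = 1.01e-08). Cd74, the invariant chain that guides class II molecules to the loading compartment (ENSMUSG00000024610, chromosome 18, 60803848 to 60812652, plus strand), stood at 20985.1, 21013.5 and 20124.4 CPM in P5, against 2487.6, 2866.7 and 2737.7 CPM in P4 (2.94 ± 0.07, adjusted p = 5.95e-09). For these 3 genes too the marks did not overlap, and the class II genes as a group added up to 52111.2 to 55957.9 CPM in P5 and 5659.1 to 6557.1 CPM in P4.

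Ciita, the transactivator that all classical class II genes need, was also higher. It stood at 126.6, 138.5 and 173.1 CPM in P5, against 16.3, 27.2 and 23.2 CPM in P4 (log2 fold change 2.71 ± 0.19, adjusted p = 8.45e-05). The peptide-loading chains followed, with log2 fold changes of 1.89 for H2-DMa, 2.10 for H2-DMb1 and 1.82 for H2-DMb2, which the stricter filter on low counts left out. H2-DMa stood at 743.5, 713.1 and 710.3 CPM in P5 and at 189.5, 199.8 and 195.0 CPM in P4. The 3 genes not called were the low-level chains H2-Eb2, H2-Oa and H2-Ob, whose log2 fold changes were 3.51, 1.84 and 0.78 at adjusted p of 0.0713, 0.265 and 0.0647. All 11 genes had every P5 library above every P4 library, which 11.6% of all genes tested did.

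**Figure D2:**
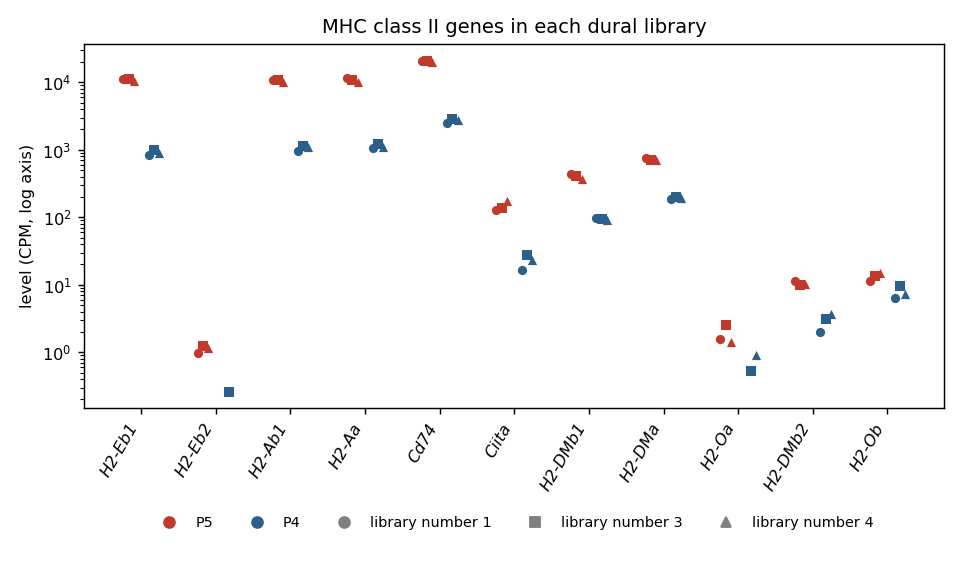
Level of each class II gene in each library in CPM on a log axis, P5 in red left of P4 in blue, with the library number as the symbol (libraries at 0 are not drawn). P5 lies above P4 in every gene, with 10096.1 to 11686.9 CPM against 837.2 to 1218.3 CPM for H2-Eb1, H2-Ab1 and H2-Aa.

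Promoters of class II genes are known to carry a Y box, a short motif with the core CCAAT or, on the other strand, ATTGG. The stretches of 150 bases before the transcription start of H2-Eb1 and H2-Aa, whose log2 fold changes were among the 3 highest at 20 CPM or more in both marks, are shown with that core in capitals, from the RefSeq promoter table of build GRCm38.p6, written 5′ to 3′ on the strand of the gene. They lie at chr17:34305717-34305866 on the plus strand for H2-Eb1 and at chr17:34287824-34287973 on the minus strand for H2-Aa.
H2-Eb1: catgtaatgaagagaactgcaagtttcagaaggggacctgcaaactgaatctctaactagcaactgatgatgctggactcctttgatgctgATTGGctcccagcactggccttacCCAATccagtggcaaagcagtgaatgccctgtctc
H2-Aa: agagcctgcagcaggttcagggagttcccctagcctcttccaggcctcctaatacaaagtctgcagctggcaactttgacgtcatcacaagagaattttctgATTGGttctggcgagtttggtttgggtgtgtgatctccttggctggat
H2-Eb1 had 2 matches, ATTGG at 59 to 55 and CCAAT at 35 to 31 bases before the start, and H2-Aa had 1, ATTGG at 48 to 44 bases before the start. The core was found on either strand in 7 of the 9 promoters of 8 class II genes in the table and in 8047 of all 32851 promoters (24.5%) over the same length. A match is a description of the letters and not of a bound site.

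MHC class I genes, which show peptides made inside the cell, differed less. Of 21 class I presentation genes, 6 were called higher and 15 were not called, with a median log2 fold change of 0.27. H2-K1, a classical class I heavy chain, stood at 2221.0, 2420.6 and 2339.5 CPM in P5, against 1711.2, 1787.0 and 1721.9 CPM in P4 (log2 fold change 0.42 ± 0.07, adjusted p = 0.00343). The other classical heavy chain tested, H2-D1, had 0.41 ± 0.07 (adjusted p = 0.00421), and the shared light chain B2m had 0.21 and was not called (adjusted p = 0.162). Both heavy chains separated the marks fully. The count ranged from 4 to 11 in the other fits. Without both libraries of number 3 it was 0, so neither H2-K1 nor H2-D1 passed there, and without both libraries of number 4 it was 3. Heavy-chain genes of this family resemble each other, so reads may be split among them.

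Of 11 tested costimulatory and checkpoint ligands, 5 were called higher. Tnfsf9, a costimulatory ligand for activated T cells, stood at 64.3, 88.4 and 71.5 CPM in P5, against 26.7, 47.6 and 35.2 CPM in P4 (log2 fold change 1.03 ± 0.20, adjusted p = 0.0106), with no overlap. Cd274, a checkpoint ligand that restrains T cells, stood at 32.6, 41.3 and 37.5 CPM in P5, against 19.1, 20.1 and 19.9 CPM in P4 (0.91 ± 0.14, adjusted p = 0.00282). Vsir, another restraining ligand, had a log2 fold change of 0.55 (adjusted p = 0.00154). The main costimulatory ligands Cd80 and Cd86 were not called, at 0.15 each (adjusted p = 0.757 and 0.364). The count was 3 without P4 library 3, P5 library 3, P5 library 4 or both libraries of number 4, and 1 without both libraries of number 3, when Cd274 and Vsir were among those lost.

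Genes of the LYVE1 type were lower. Of 20 genes associated with LYVE1-positive resident macrophages, all tested, 9 were called lower and 11 were not called, with a median log2 fold change of -0.33. Lyve1 itself (ENSMUSG00000030787, chromosome 7, 110850607 to 110863239, minus strand) stood at 83.8, 92.4 and 137.3 CPM in P5, against 297.6, 259.4 and 294.7 CPM in P4 (log2 fold change -1.44 ± 0.17, adjusted p = 0.000711). Colec12, a scavenger receptor with a collagen-like stalk, stood at 19.9, 28.1 and 34.7 CPM in P5, against 117.1, 112.6 and 101.9 CPM in P4 (-1.99 ± 0.18, adjusted p = 0.000256). The marks did not overlap in either gene, and library 4 was the highest of the P5 libraries in both.

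Fgfr1, a receptor for fibroblast growth factors, stood at 32.8, 35.6 and 47.8 CPM in P5, against 82.3, 94.8 and 84.7 CPM in P4 (log2 fold change -1.17 ± 0.15, adjusted p = 0.00116). Ltc4s, a leukotriene synthase, stood at 47.3, 44.2 and 48.9 CPM in P5, against 91.3, 72.4 and 82.6 CPM in P4 (-0.81 ± 0.12, adjusted p = 0.00242). The remaining called members were Fcna, Timd4, Folr2, Igfbp4 and Gas6, with log2 fold changes from -1.12 for Fcna to -0.36 for Gas6. Timd4 binds phosphatidylserine on dying cells, and Gas6 bridges such cells to receptors of the TAM family. Fcna kept its call throughout, while Timd4 lost it in 4 alternatives, Gas6 in 5, Igfbp4 in 6 and Folr2 in 7. Fibroblast genes were lower in P5 as well, summing to 989.0 to 1230.5 CPM against 3042.1 to 5533.3 CPM in P4. Their part in the calls of this list, and in those of Scara5 and Ctsk below, was not tested.

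Several genes commonly used for the same cells were not called. The mannose receptor Mrc1 stood at 3796.4, 4674.3 and 5447.1 CPM in P5, against 4593.8, 4747.6 and 5421.3 CPM in P4 (log2 fold change -0.09, adjusted p = 0.773). The haemoglobin scavenger receptor Cd163 had -0.31 (adjusted p = 0.237), the transglutaminase F13a1 -0.25 (adjusted p = 0.254) and the transcription factor Maf 0.02 (adjusted p = 0.942). Libraries of the 2 marks overlapped in Mrc1 and Maf. The list's count was 5 without P4 library 3, 5 without both libraries of number 3 and 7 to 13 in the other fits. The summed level of the list was 30919.9, 31578.4 and 34676.5 CPM in P5, against 36214.1, 35983.1 and 39725.0 CPM in P4.

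**Figure D3:**
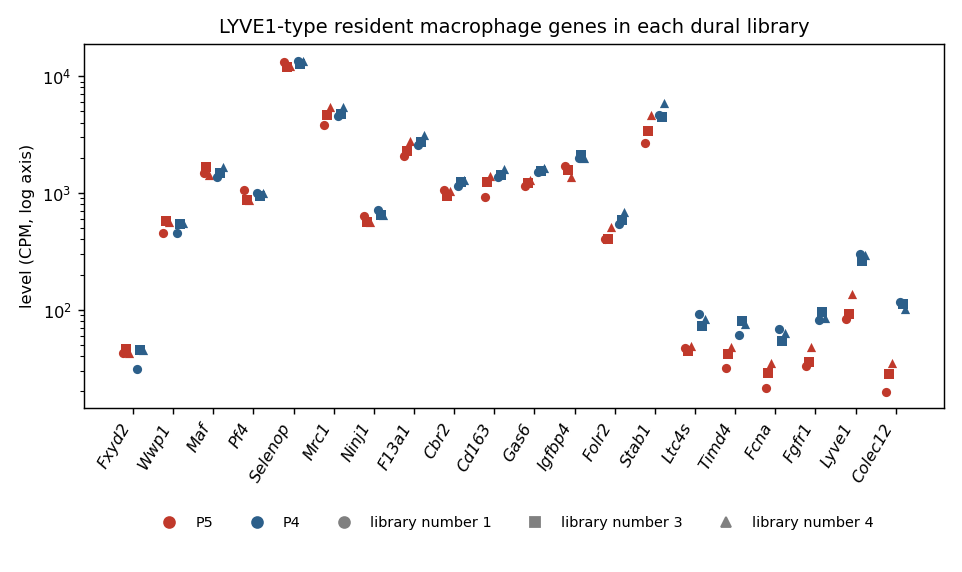
Level of each gene associated with LYVE1-positive macrophages in each library in CPM on a log axis, P5 in red left of P4 in blue, ordered by log2 fold change. P5 lies wholly below P4 in 11 of the 20 genes, among them the 6 on the right, from Ltc4s to Colec12, while Mrc1 and Maf overlap. The share with P5 wholly below P4 over all genes tested was 14.8%.

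Other genes for uptake and for iron handling divided. Slc40a1, the iron exporter ferroportin (ENSMUSG00000025993, chromosome 1, 45908068 to 45926523, minus strand), stood at 258.2, 307.7 and 313.6 CPM in P5, against 657.7, 639.8 and 751.5 CPM in P4 (log2 fold change -1.22 ± 0.10, adjusted p = 0.000199), with no overlap. It was 1 of 2 genes called lower among 15 tested iron and heme genes, and Slc11a1, an iron and manganese transporter of the phagosome, was called higher at 0.52 (adjusted p = 0.00411, lost without both libraries of number 3). Heme oxygenase Hmox1 and the ferritin chains Fth1 and Ftl1 were not called, at 0.07, 0.13 and -0.01 (adjusted p = 0.787, 0.524 and 0.959). Scavenger receptors were mostly not called, with 2 of 13 lower, namely Colec12 and Scara5, of which Scara5 (-1.15, adjusted p = 0.0321) lost its call in 7 alternatives.

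Lectin receptors were called in both directions, 5 higher and 3 lower of 17 tested. The shares over all genes tested were 2.66% higher and 6.02% lower. Clec4b1, an activating C-type lectin, stood at 38.5, 33.7 and 35.7 CPM in P5, against 5.21, 12 and 8.84 CPM in P4 (log2 fold change 2.03 ± 0.25, adjusted p = 0.000928). Clec7a, the beta-glucan receptor Dectin, stood at 183.0, 199.9 and 174.3 CPM in P5, against 113.5, 86.6 and 84.2 CPM in P4 (0.97 ± 0.13, adjusted p = 0.00143). Mgl2, a galactose-binding lectin usually counted among genes of alternative activation, stood at 1361.0, 1258.8 and 1158.7 CPM in P5, against 595.8, 641.3 and 638.8 CPM in P4 (1.01 ± 0.08, adjusted p = 0.000199). None of these 3 overlapped between the marks. The lower calls were Cd209b at -0.61 (adjusted p = 0.00327), Cd209a at -0.57 and Clec4n at -0.43, and all 3 of them lost their calls without both libraries of number 3. The 3 lower calls became 1 without P4 library 3, P5 library 3 or P5 library 4, and 1 without both libraries of number 4. The 5 higher calls became 2 without both libraries of number 3, and 4 to 9 in the other fits.

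Ccr2, the receptor that draws monocytes into tissue (ENSMUSG00000049103, chromosome 9, 124101950 to 124113557, plus strand), stood at 290.0, 285.0 and 260.4 CPM in P5, against 107.4, 49.8 and 34.7 CPM in P4 (log2 fold change 2.13 ± 0.33, adjusted p = 0.00298). The P5 libraries lay close together, the P4 libraries were spread out with library 1 the highest, and the marks did not overlap. Itgax, the integrin alpha X chain of dendritic cells and some macrophages, stood at 34.2, 34.1 and 25.9 CPM in P5, against 10.9, 3 and 3.93 CPM in P4 (2.44 ± 0.40, adjusted p = 0.00409). The marks did not overlap here either, and library 1 was again the highest P4 library. Of 12 tested genes of conventional dendritic cells, 2 were called higher and 2 lower, where 2.66% and 6.02% of all genes tested were. The lower calls were Fscn1 and Cd209a, of which Cd209a lost its call in 8 alternatives. The receptor Flt3 stood at 1.85, 1.64 and 1.71 CPM in P5, against 1.62, 0.326 and 1.85 CPM in P4, and the transcription factor Zbtb46 was not called (log2 fold change -0.13, adjusted p = 0.894). Batf3, a transcription factor of cross-presenting dendritic cells, was higher at 1.56 ± 0.28 (adjusted p = 0.00668), with 26.8, 14.8 and 15.9 CPM in P5 and 7.73, 6.92 and 4.85 CPM in P4.

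Genes of blood monocytes were called in both directions. Of 20 tested genes of classical monocytes, 3 were called higher, namely Ccr2, Lyz1 and Lyz2, and 3 lower, namely Plac8, Fn1 and Thbs1. Over all genes tested, 2.66% were called higher and 6.02% lower. Ly6c2, the surface antigen that defines classical monocytes in mice, stood at 0, 2.3 and 0.812 CPM in P5, against 2.79, 6.07 and 0.924 CPM in P4 (adjusted p = 0.422). The lysozyme genes Lyz1 and Lyz2 had log2 fold changes of 1.89 and 0.51 (adjusted p = 0.000736 and 0.00117), and because their sequences are alike, reads may be shared between them. The lower calls of Plac8, Fn1 and Thbs1 did not hold together in the alternatives, with 1 such call in limma-voom and without P4 library 1, P4 library 3, P5 library 1, P5 library 3 or both libraries of number 1, and 0 without P5 library 4 or without both libraries of number 3. Of 11 tested genes of nonclassical monocytes, 4 were higher and 1 lower. The lower call was Ace, lost only in the fit over the 9 dural libraries without a term for the library number. Adgre4, an adhesion receptor, stood at 101.7, 114.3 and 118.4 CPM in P5, against 32.7, 33 and 44 CPM in P4 (1.60 ± 0.14, adjusted p = 0.00024). The higher count was 2 without P4 library 1, P4 library 4, P5 library 3, P5 library 4 or both libraries of number 4, and 1 without both libraries of number 3.

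Chemokine genes were often higher. Of 11 tested CXC chemokines, 5 were called higher and 1 lower, and of 11 tested CC chemokines, 6 were called higher and 1 lower. Cxcl9, which attracts activated T cells and answers to interferon gamma, stood at 126.6, 164.2 and 125.4 CPM in P5, against 31.9, 25.5 and 32.1 CPM in P4 (log2 fold change 2.22 ± 0.15, adjusted p = 5.29e-05). Cxcl16, a membrane-bound chemokine and scavenger of oxidised lipid, stood at 347.2, 328.9 and 312.0 CPM in P5, against 201.8, 187.6 and 181.8 CPM in P4 (0.79 ± 0.09, adjusted p = 0.000554). Cxcl10, another attractant of T cells, had 0.88 ± 0.14 (adjusted p = 0.00367), and the B cell attractant Cxcl13 had 2.83 ± 0.39 (adjusted p = 0.00161) at low levels. In these 4 genes the marks did not overlap.

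Ccl5, an attractant of T cells and monocytes, stood at 12.4, 14.1 and 12.6 CPM in P5, against 1.53, 2.35 and 2.25 CPM in P4 (log2 fold change 2.65 ± 0.26, adjusted p = 0.000385). Ccl4 was higher at 0.67 ± 0.12 (adjusted p = 0.00732). The lower members were the eosinophil attractant Ccl24, at 144.0, 135.7 and 149.0 CPM in P5 and 219.2, 216.7 and 246.0 CPM in P4 (-0.67 ± 0.09, adjusted p = 0.00188, lost without both libraries of number 3), and Cxcl12, a chemokine made by stromal cells, at -1.29 (adjusted p = 0.0202, lost without P5 library 1, P5 library 4 or both libraries of number 1). Fibroblast genes, whose summed level was 989.0 to 1230.5 CPM in P5 and 3042.1 to 5533.3 CPM in P4, fell with Cxcl12, and their part in the result was not tested. The CC count was 3 without both libraries of number 3. Of 26 tested interferon-stimulated genes, 1 was called, Cxcl10, with a median log2 fold change of -0.12 for the list.

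Of 20 tested integrins and adhesion receptors, 8 were called higher, with a median log2 fold change of 0.44. Cd44, the hyaluronan receptor of moving leukocytes, stood at 59.9, 59.1 and 53.7 CPM in P5, against 24.2, 21.5 and 16.7 CPM in P4 (log2 fold change 1.47 ± 0.15, adjusted p = 0.000421). Itgal, an integrin chain of leukocyte adhesion, had 1.16 ± 0.18 (adjusted p = 0.00278), and the selectin ligand Selplg had 0.63 ± 0.09 (adjusted p = 0.00226). Cd44 kept its call throughout, and Itgal and Selplg lost theirs without both libraries of number 3. The count was 5 without P4 library 3 or P5 library 3 and 2 without both.

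Of 20 tested Toll-like receptors and adaptors, 7 were called higher, against 2.66% of all genes tested, with a median log2 fold change of 0.26. Tlr12, a sensor of profilin from parasites, stood at 29.9, 29.9 and 33.5 CPM in P5, against 8.72, 7.37 and 4.74 CPM in P4 (2.17 ± 0.22, adjusted p = 0.000421), with no overlap. Tlr1 had 0.80 (adjusted p = 0.00207) and the DNA sensor Tlr9 had 0.81 (adjusted p = 0.0119), both lost without both libraries of number 3. Tlr4, the receptor of bacterial lipopolysaccharide, was not called (-0.12, adjusted p = 0.675). The count was 3 or 4 without P4 library 1, 3 or 4 or P5 library 3 or 4, 2 without both libraries of number 3, 3 without both of number 4, and 3 with library totals or with a stricter filter on low counts.

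Of 22 tested immediate early genes, which respond within minutes to stimuli, 9 were called higher, with a median log2 fold change of 0.37. Junb, a partner of Fos in transcription, stood at 5386.2, 5246.8 and 5602.9 CPM in P5, against 3408.5, 3521.9 and 4110.6 CPM in P4 (log2 fold change 0.55 ± 0.08, adjusted p = 0.0019). The phosphatase Dusp1 and the RNA-binding repressor Zfp36 had 0.58 ± 0.09 and 0.41 ± 0.06 (adjusted p = 0.00296 and 0.0033), and the marks did not overlap in these 3 genes. Egr1 and Jun were not called, at 0.29 and 0.18 (adjusted p = 0.251 and 0.533). Of 16 NF-kappaB subunits and inhibitors, 5 were called higher. Nfkbia, the inhibitor that NF-kappaB itself induces, stood at 1571.5, 1366.7 and 1322.3 CPM in P5, against 883.7, 907.7 and 935.6 CPM in P4 (0.64 ± 0.08, adjusted p = 0.00113). The immediate early count was 5 without P4 library 1, 4 without P4 library 3, 3 without both libraries of number 3, 4 with library totals and up to 16 in the other fits. The NF-kappaB count was 2 without P5 library 3 or without both libraries of number 3 or 4, 3 with library totals and up to 10 in the other fits. The inflammatory cytokine Il1b was called (1.13 ± 0.30, adjusted p = 0.0464) with 394.3, 714.8 and 363.6 CPM in P5 and 217.4, 314.6 and 140.6 CPM in P4, and lost its call in 9 alternatives.

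Complement genes moved both ways, 4 higher and 5 lower of 20 tested, where 2.66% and 6.02% of all genes tested did. C3, the central component, stood at 120.6, 216.7 and 244.1 CPM in P5, against 62.6, 63.3 and 59.7 CPM in P4 (log2 fold change 1.65 ± 0.22, adjusted p = 0.00129). C2, a protease of the classical pathway, stood at 8.21, 11.3 and 8.51 CPM in P5, against 36.8, 37.4 and 33.6 CPM in P4 (-1.95 ± 0.17, adjusted p = 0.000239). Vsig4, a complement receptor of resident macrophages, stood at 0.706, 1.56 and 2.1 CPM in P5, against 17.2, 10.5 and 10.3 CPM in P4 (-3.06 ± 0.39, adjusted p = 0.00112). The marks were fully apart in all 3 genes. Cd55, which shields cells from complement, was lower too at -1.53 ± 0.17 (adjusted p = 0.00049), while the initiating chains C1qa and C1qc were not called, at 0.12 and 0.06 (adjusted p = 0.362 and 0.668). The higher count was 2 without P4 library 1, 3 or 4, without P5 library 3 or 4, without both libraries of number 3 or of number 4, or with library totals, and the lower count was 3 without P4 library 3, P5 library 3 or both.

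Among receptors for antibody and for dying cells, few were called. Fcgr4, an activating Fc receptor, stood at 133.3, 122.4 and 96.9 CPM in P5, against 40.3, 51 and 40.2 CPM in P4 (log2 fold change 1.42 ± 0.15, adjusted p = 0.000461). Fcgr1 and Fcgr3 were not called, at 0.14 and 0.16 (adjusted p = 0.43 and 0.326). Axl, a TAM receptor, stood at 1302.3, 1406.9 and 1404.5 CPM in P5, against 879.5, 888.0 and 883.7 CPM in P4 (0.63 ± 0.07, adjusted p = 0.000521), and Mertk, its relative, was not called (-0.07, adjusted p = 0.865). Fcgr4 and Axl separated the marks fully.

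Transcription factors of macrophages gave 6 higher calls and 1 lower among 24 tested. For these and the cathepsins below, the shares over all genes tested were 2.66% higher and 6.02% lower. Runx3, which is known in dendritic and T cells, stood at 30.1, 27.6 and 25 CPM in P5, against 6.29, 10.3 and 9.53 CPM in P4 (log2 fold change 1.65 ± 0.21, adjusted p = 0.000961). The lineage factor Spi1 was not called (0.23, adjusted p = 0.198). The higher count was 3 without P4 library 3 or P5 library 3, 2 without both libraries of number 3 or with library totals, and 10 with no filter on low counts. Of 13 tested lysosomal cathepsins, 3 were lower and 1 higher. Ctsd, the abundant aspartic protease, stood at 1813.9, 1926.7 and 1983.2 CPM in P5, against 3425.9, 2888.4 and 2890.4 CPM in P4 (-0.69 ± 0.08, adjusted p = 0.000802), with no overlap. Ctsk, the collagen-cleaving cathepsin of osteoclasts, was lower at -1.89 ± 0.22 (adjusted p = 0.000712), and Ctss, which trims the invariant chain in class II compartments, was higher at 0.49 ± 0.10 (adjusted p = 0.0118, lost without P4 library 3 and without both libraries of number 3). Lpl, the lipoprotein lipase, stood at 285.3, 331.9 and 252.8 CPM in P5, against 156.6, 168.6 and 150.4 CPM in P4 (0.87 ± 0.11, adjusted p = 0.00117).

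Outside these lists, the highest fold changes among genes with at least 20 CPM in P5 and no overlap included several surface and lysosomal genes. Plbd1, a lysosomal phospholipase B-like protein (ENSMUSG00000030214, chromosome 6, 136612070 to 136661928, minus strand), stood at 394.0, 420.3 and 406.8 CPM in P5, against 79.4, 84.3 and 75.9 CPM in P4 (log2 fold change 2.35 ± 0.09, adjusted p = 3.86e-07). Slamf7, a receptor of the SLAM family on leukocytes, stood at 24.3, 29.7 and 24.5 CPM in P5, against 6.38, 3.79 and 2.89 CPM in P4 (2.61 ± 0.28, adjusted p = 0.000461). The sialyltransferase St8sia6 had 2.65 ± 0.36 (adjusted p = 0.00152) and the tetraspanin Tspan32 had 2.24 ± 0.25 (adjusted p = 0.000508). Plbd1 had narrow values in both marks and, outside the class II genes, the smallest adjusted p of the genes named here.

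**Figure D4:**
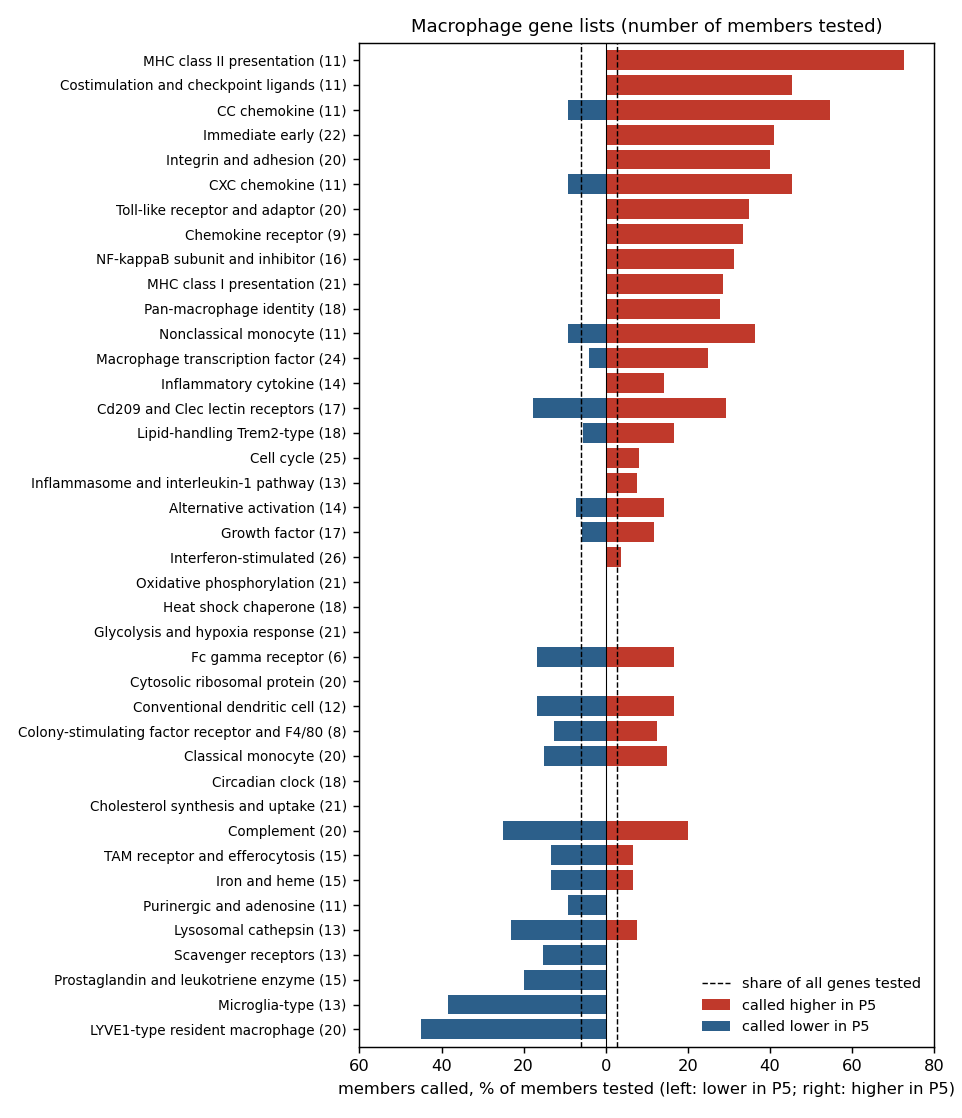
For each macrophage gene list, the percentage of its tested members called lower in P5 (blue, to the left) and called higher in P5 (red, to the right), with the number tested in brackets and dashed lines at the shares over all genes tested, 6.02% lower and 2.66% higher. MHC class II stands highest on the right with 8 of 11 and the LYVE1 type farthest on the left with 9 of 20.

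Several cell programmes gave no calls in the comparison of P5 with P4 as fitted here. With edgeR's quasi-likelihood test, 0 of 18 heat shock chaperones, 0 of 21 genes of cholesterol synthesis and uptake, 0 of 21 of glycolysis and 0 of 21 of oxidative phosphorylation were called, with medians of 0.03, -0.03, 0.03 and -0.01. At an unadjusted p under 0.05, 2 chaperones were higher and 2 lower, 1 gene of cholesterol synthesis and uptake was higher and 2 lower, 2 genes of glycolysis were higher and 2 lower, and 0 of oxidative phosphorylation passed. DESeq2 called 1 gene of the cholesterol list and 0 in the other 3 lists, and limma-voom called 0 in each. Of 20 cytosolic ribosomal proteins, 0 were called by edgeR, 2 by DESeq2 and 0 by limma-voom, although 6 had an unadjusted p under 0.05, all higher in P5, with a median of 0.28. With edgeR, 8 of them were called higher with no filter on low counts, 6 with a term for the library number and 7 with that term and the P6 libraries in the fit. Of 18 tested circadian clock genes, 0 were called by edgeR, 1 by DESeq2 and 0 by limma-voom, and at an unadjusted p under 0.05, 3 were higher and 3 lower. Of 25 tested cell cycle genes, the proliferation gene Mki67 and the topoisomerase Top2a were called higher, with 4.77, 6.74 and 6.46 CPM in P5 and 0.899, 2.74 and 1.27 CPM in P4 for Mki67 (log2 fold change 1.85 ± 0.45, adjusted p = 0.0292), and they lost their calls in 8 and 4 alternatives. The cell cycle list leaned higher in P5, with a median log2 fold change of 0.49. In 12 of its 25 genes every P5 library lay above every P4 library, which 11.6% of all genes tested did. At an unadjusted p under 0.05 in edgeR, 7 were higher and 0 lower. The general macrophage genes gave 5 higher calls of 18, of which Lyz2 held in every alternative and Ptprc, the leukocyte phosphatase CD45, had 0.66 ± 0.11 (adjusted p = 0.00584, lost without both libraries of number 3). That count was 2 or 3 without P4 library 1, 3 or 4, without P5 library 3 or 4 or without both libraries of any number, and 2 to 9 in the other fits.

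Genes of fibroblasts and collagen were lower in P5. Of 18 fibroblast genes, 14 were called lower in P5, and of 17 tested collagen chains, 15 were. Their median log2 fold changes were -2.15 and -2.18. Fibroblast genes summed to 989.0, 1230.5 and 1006.5 CPM in P5, against 4176.3, 5533.3 and 3042.1 CPM in P4, so every P5 library was lower, and library 4 was the lowest of P4. Col1a1, a chain of collagen type I (ENSMUSG00000001506, chromosome 11, 94936224 to 94953042, plus strand), stood at 208.1, 280.8 and 247.5 CPM in P5, against 1139.2, 1386.0 and 816.7 CPM in P4 (-2.18 ± 0.18, adjusted p = 0.000199). Col6a2 had -2.63 ± 0.24 (adjusted p = 0.000254) and the growth factor receptor Pdgfra, which marks fibroblasts, -1.99 ± 0.18 (adjusted p = 0.000239). In bulk sorted cells, fewer cells of a type and less RNA per cell cannot be told apart.

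Genes of the meninges and of embryonic head mesenchyme fell as well. Of 12 tested genes of the meningeal barrier, 8 were called lower, of 17 tested transcription factors of head mesenchyme, 11, and of 12 tested imprinted growth genes, 10. Igf2, a growth factor of meningeal cells, stood at 291.3, 368.3 and 297.7 CPM in P5, against 913.9, 1111.2 and 694.9 CPM in P4 (log2 fold change -1.51 ± 0.16, adjusted p = 0.000461). The tight junction gene Cldn11 had -2.30 ± 0.33 (adjusted p = 0.00207), the gap junction gene Gjb6 -3.16 ± 0.38 (adjusted p = 0.000744) and the transcription factor Zic1 -1.64 ± 0.22 (adjusted p = 0.00127). The marks did not overlap in these 4 genes. The meningeal count was 5 without P4 library 3 or P5 library 3 and 4 without both, and 4 with the P6 libraries in the fit, the mesenchyme count was 7 without P5 library 4 and 6 without both libraries of number 3, and the imprinted count was 6 without P4 library 3, P5 library 1, P5 library 4 or both libraries of number 4, 3 without both libraries of number 3, and 4 with the P6 libraries in the fit.

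Mast cell genes summed to 40.4, 20.7 and 17.6 CPM in P5, against 165.0, 190.7 and 46.4 CPM in P4, and 5 of 7 tested were called lower. Of all genes tested, 6.02% were called lower. Mcpt4, a mast cell protease, stood at 7.33, 5.18 and 4.32 CPM in P5, against 53.8, 42.7 and 10.9 CPM in P4 (-2.69 ± 0.50, adjusted p = 0.00759, lost in limma-voom and without both libraries of number 1 or 3). The list's count was 3 without P4 library 1, 2 without P4 library 3, P5 library 3, P5 library 4 or both libraries of number 1, 0 without both libraries of number 3, 2 with a stricter filter and 1 in limma-voom. Endothelial genes did not separate the marks, with 445.5, 405.8 and 219.5 CPM in P5 and 280.9, 481.6 and 497.2 CPM in P4, and 3 of 18 called lower (1 without P4 library 3, P5 library 4 or both libraries of number 1, 3 or 4, and 0 to 5 in the other fits). The neutrophil antigen Ly6g was at 0 in all 6 libraries. The T cell receptor chain Cd3e stood at 0.177, 0 and 0.128 CPM in P5 and 0, 0.196 and 0.404 CPM in P4. Their lists as a whole were not near 0. Few of their members were tested, 4 of 20 T and natural killer cell genes and 5 of 14 neutrophil genes. The sums may therefore rest on few members, and which ones was not worked out. T and natural killer cell genes summed to 192.0, 248.7 and 241.1 CPM in P5, against 294.7, 329.6 and 315.7 CPM in P4. Of 4 tested, 1 was called lower, namely Cd4, a call lost in 7 alternatives. Neutrophil genes summed to 663.3, 803.4 and 965.9 CPM in P5, against 551.1, 662.0 and 801.3 CPM in P4, with 0 of 5 tested called.

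The fibroblast and collagen genes were lower in P5 together with the LYVE1-type genes, and their levels over the P4 libraries were set side by side. In P4 library 4, the 14 called fibroblast genes had a median of 0.651 of the mean level of P4 libraries 1 and 3, and the 15 called collagen chains 0.594. The ratio was 0.678 for the 8 called meningeal genes, 0.932 for the 3 called endothelial genes and 1.41 for the 2 called mural genes. The 9 called LYVE1-type genes had a median of 1.04 there, with 1.06 for Lyve1, 0.887 for Colec12 and 1.16 for the iron exporter Slc40a1. These ratios rest on P4 library 4 and on genes picked because they were called lower. A part of other cells in the LYVE1-type calls was not tested. Of 13 genes of the microglia type, 5 were called lower, a count that fell to 2 or 3 without any of P4 libraries 3 and 4 or P5 libraries 1, 3 and 4, or without both libraries of a number. The leading such gene, Sparc, a matrix protein of fibroblasts as well as microglia, had a ratio of 0.638, and its log2 fold change was -1.52 ± 0.18 (adjusted p = 0.000746). Among other genes called lower, the prostaglandin synthase Ptges had a ratio of 0.504, whereas Ctsd had 0.916, C2 had 0.906 and Vsig4 0.747. Of the 778 genes called lower in P5, 70 were in a list of another cell type, and 0 of the 343 genes called higher were. Over all 12914 genes tested, 6.02% were called lower and 2.66% higher, which is not the share of tested genes that are in such lists. That share was not worked out, so the 70 and the 0 have no background here. The lists hold a small part of the genes tested and were chosen with earlier results known, so these counts are a description.

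**Figure D5:**
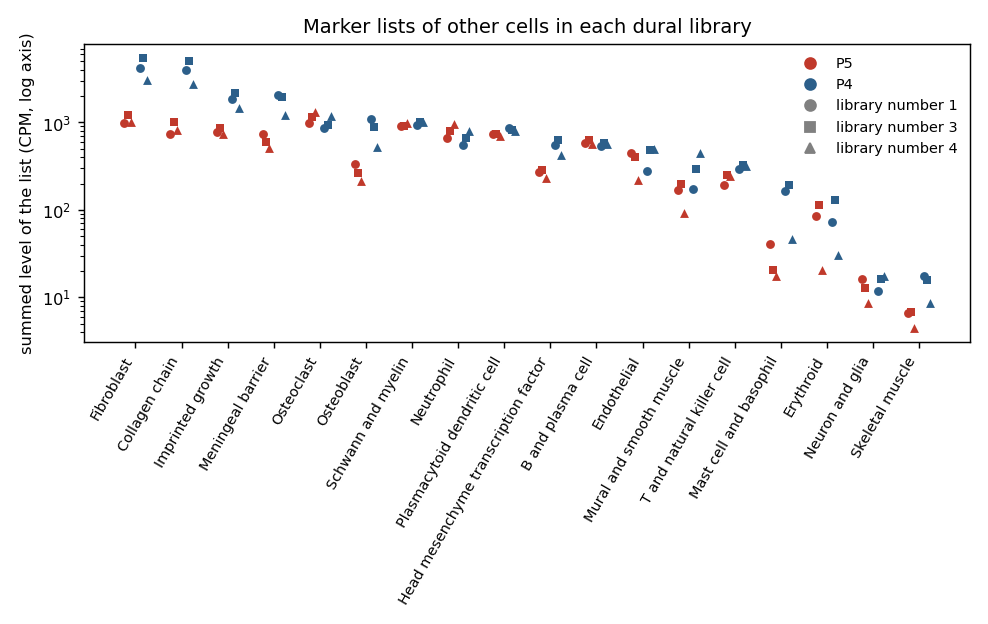
Summed level of each marker list of other cells in each library in CPM on a log axis, P5 in red left of P4 in blue, with the library number as the symbol. Fibroblast, collagen, imprinted, meningeal, osteoblast, mesenchyme and mast cell lists lie lower in P5, with P4 library 4 the lowest of P4 in each, while endothelial, erythroid and glial lists overlap. The T and natural killer, plasmacytoid dendritic and skeletal muscle lists also lie lower in P5. In the T and natural killer list, P4 library 1 is the lowest of P4.

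The P6 libraries, also from dura and used here for levels, lay beyond P5 for many of these genes. In a multidimensional scaling of the 9 dural libraries, the first axis (41.5% of the variance) held P5 between -0.25 and 0.09, P4 between -1.97 and -1.33 and P6 between 1.47 and 2.01. H2-Ab1 stood at 16074.8, 16753.1 and 15713.6 CPM in P6, Ccr2 at 1693.7, 1533.2 and 1588.6 CPM and Lyve1 at 5.02, 6.23 and 15.2 CPM. For all 3 genes P5 lay between P4 and P6. Other genes did not follow that order: Cxcl9 was at 77.9, 109.9 and 114.4 CPM in P6, below every P5 library, and Olfml3, a secreted glycoprotein gene of microglia, stood at 86.8, 88.7 and 80.4 CPM in P5, against 227.4, 224.4 and 140.7 CPM in P4 and 137.0, 165.6 and 159.2 CPM in P6. The P5 and P4 libraries were compared with P6 for levels alone, and no difference from P6 was tested.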

How the data were processed

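The authors deposited a table of counts for 41388 genes in 24 columns. It was read as raw counts because its values are whole and its totals differ, although it is called normalised. Tools named in the submitters' processing notes are featureCounts, STAR 2.4.0j and DESeq2 1.20.0, with the build GRCm38, without saying which step made the table. The kit was unstranded, per the labels' protocols, so a gene and its antisense partner share reads. The 15 diaphragm columns were not used.

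Genes were kept with filterByExpr by mark (12914 of 41388) and scaled with TMM factors, and the 3 P5 and 3 P4 libraries were compared by the quasi-likelihood test of edgeR 4.0.16 under R 4.3.3, two-sided, with mark as the only term, Benjamini-Hochberg adjustment over all genes tested and a threshold of 0.05. The biological coefficient of variation was 0.211. Log2 fold changes are P5 minus P4. The SE given is the absolute log2 fold change divided by the square root of the F statistic of the test. Levels are counts per 1000000 scaled with TMM factors over the 9 dural libraries. Symbols were matched for 40254 genes and coordinates come from GENCODE for GRCm38. Alternatives were other scalings, filters and tools (DESeq2 1.42.0, limma-voom with limma 3.58.1), a term for the library number, the P6 libraries in the fit, and each library or number left out, 20 in all.

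Genes named are 4 markers, the 10 highest and 10 lowest fold changes with at least 20 CPM in the higher mark, the 8 highest and 8 lowest with at least 20 CPM in both marks, up to 4 called members of each of 58 lists, and a list of general macrophage genes. Further list members, and H2-M2, Mmp12 and Stat4, were named after their values were seen. Members and lists were chosen with earlier results of these data known. With 3 against 3 libraries an exact permutation test cannot go below 0.1, so none was used.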

Additional observations from a re-analysis of the deposited data

How the results depend on the processing

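No call was reversed in any of the 20 alternatives. Against 343 genes higher and 778 lower in P5, the higher count moved to 205 with library totals, 667 with no filter on low counts, 524 with DESeq2, 663 with a replicate block on the library number and 794 with that block over the 9 dural libraries. Leaving out a library or a number gave 94 to 368 higher and 273 to 754 lower calls, lowest in both directions without number 3. All other counts over all genes stayed within 1.5 times. Of 152 named genes that were called, 74 kept the call in every alternative. Same-numbered libraries deviated together with correlations of 0.0734, 0.118 and 0.148, against -0.0841 to -0.0192 between different numbers. The main fit had mark as its only term, so the numbers were not taken as pairs there. Each library correlated best with its own number, which is a hint from the data, and the block raised the calls to 663 higher and 941 lower. Depth limits genes with few counts, most in P4 library 1, the shallowest library.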

Other observations

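The highest log2 fold changes of all called genes, whatever their level, were in 3 genes with few counts. H2-M2, a nonclassical MHC class I gene, had 160, 152 and 161 counts in the P5 libraries, against 0, 11 and 0 counts in the P4 libraries (log2 fold change 5.43, adjusted p = 0.00254). Mmp12, the macrophage elastase, had 89, 101 and 95 counts in P5, against 0, 7 and 6 counts in P4 (4.50, adjusted p = 0.00242), and stood at 41.4, 38.3 and 30.9 CPM in P6. Stat4, a transcription factor that carries interleukin signals, had 41, 29 and 91 counts in P5, against 1, 6 and 3 counts in P4 (3.83, adjusted p = 0.00481). The marks did not overlap in any of these 3 genes. All 3 were left out by the stricter filter on low counts, and Stat4 also lost its call without both libraries of number 4.

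The 10 lowest fold changes among called genes with at least 20 CPM in P4 and no overlap ran from -3.19 for Pappa to -2.63 for Gpc3 and included Slc7a11, Sfrp4, Fndc1, Cpz and Mcpt4 beside the 3 genes described next. Pappa lost its call in 4 alternatives, Slc7a11 in limma-voom, and Sfrp4 without both libraries of number 1. Gjb6 and Gjb2, connexins that couple cells of the meninges and inner ear, had log2 fold changes of -3.16 and -3.05 (adjusted p = 0.000744 and 0.00138). Gjb6 stood at 4.06, 4.19 and 4.15 CPM in P5, against 44.9, 49.7 and 16.3 CPM in P4. Col12a1, a collagen of connective tissue, stood at 45.6, 50.7 and 38.3 CPM in P5, against 327.2, 365.7 and 168.8 CPM in P4 (-2.68 ± 0.26, adjusted p = 0.000322). In both genes P4 library 4 was the lowest of its mark and still above every P5 library, as it was for the summed fibroblast genes, and their part in the result was not tested.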
